A study of Gossypium hirsutum with 6 samples.

Results

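Unheated leaves of a heat-tolerant and a heat-sensitive upland cotton genotype were compared. All transcripts that reached 10 RPKM (reads per transcript length, scaled to the size of the library) in at least 1 of the 2 control libraries were taken, which gave 13216 of the 421554 transcripts listed. They lie in 8128 of 148415 components, a component being the set of transcripts that an assembler built together. The tolerant plants were Nan Dan Ba Di Da Hua and the sensitive plants Earlistaple 7, both described in this way by the labels. Seedlings of about 20 days were raised at 28 °C in the day and at 22 °C in the night, with 14 h of light, with Hoagland's solution named as the culture condition, and the controls stayed at 28 °C. The same genotypes were also held at 45 °C for 4 or 8 h, starting about 6 h after light onset, and those 4 libraries serve here only to follow the same transcripts under heat. Each of the 6 groups held 1 leaf library, so no value has a replicate error, and how much plants of 1 genotype vary cannot be seen. The labels do not give the hour at which the control leaves were collected.

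Upland cotton (*Gossypium hirsutum*) is an allotetraploid that carries copies of most genes from a pair of ancestral genomes. A de novo assembly can split such copies, their alleles and their splice forms into separate transcripts or merge them. Genotypes can differ before any stress, in genes that one of them lacks or has in a diverged form and in genes whose activity differs at the time of sampling. The identifiers in the files carry no gene names, and 0 could be found among the 99454 genes of the RefSeq table for this species, so leaf markers could not be checked and transcripts are described by their values. No sequence came with the identifiers.

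Read depth, recovered from the spacing of low values, was 1.13 in the sensitive control relative to the tolerant control. Of the transcripts compared, 9177 were at 10 RPKM or more in both controls, 2294 in the tolerant control alone and 1745 in the sensitive control alone. They held 59.4% of all RPKM in unheated tolerant and 55.8% in unheated sensitive leaves. Their median level was 16.4 RPKM in unheated tolerant and 15.4 RPKM in unheated sensitive leaves. The limit of 10 RPKM cut through a continuous range. The lowest transcript taken peaked at 10.0 RPKM and the highest one left out at 9.99 RPKM. Of the 1359 transcripts that peaked at 10 to 11 RPKM, 9.86% were higher by 2-fold or more in unheated tolerant leaves and 2.28% lower, and of the 1662 that peaked at 9 to 10 RPKM, 9.33% and 2.77%.

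Most transcripts stood at similar levels in both genotypes, and the differences were one-sided. On the log2 scale of (RPKM + 1), tolerant over sensitive, the median ratio was -0.02 with quartiles at -0.30 and 0.34, so that 11260 transcripts (85.2%) were less than 2-fold apart. In unheated tolerant leaves 1667 transcripts (12.6%) were higher by 2-fold or more and 289 (2.19%) were lower. The 4-fold limit was passed by 977 (7.39%) upward and 60 (0.454%) downward, and the 8-fold limit by 437 (3.31%) and 25 (0.189%). The share of upward calls therefore increased with size, from 85.2% of calls at 2-fold to 94.6% at 8-fold. The 5th and 95th percentiles of the log2 ratio, -0.75 and 2.65, show the same lean. Across these transcripts, which are not independent replicates, the controls correlated at Pearson's r = 0.70 on that scale (Spearman's rho = 0.654). Both libraries were normalised to their own reads, and scaling by the median ratio or the upper quartile moved the log2 ratio by 0.13 or 0.10, in the direction of higher values in the tolerant control. With low transcripts included, the lean at 2-fold faded and then turned. With a limit of 1 RPKM in place of 10, 5.28% of transcripts were 2-fold higher and 3.23% lower. The upward share of calls was then 62.1%, and 46.1% with no limit and a pseudocount of 0.1 RPKM. At 8-fold the upward shares in these settings were 93.3% and 55.3%.

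**Figure D1:**
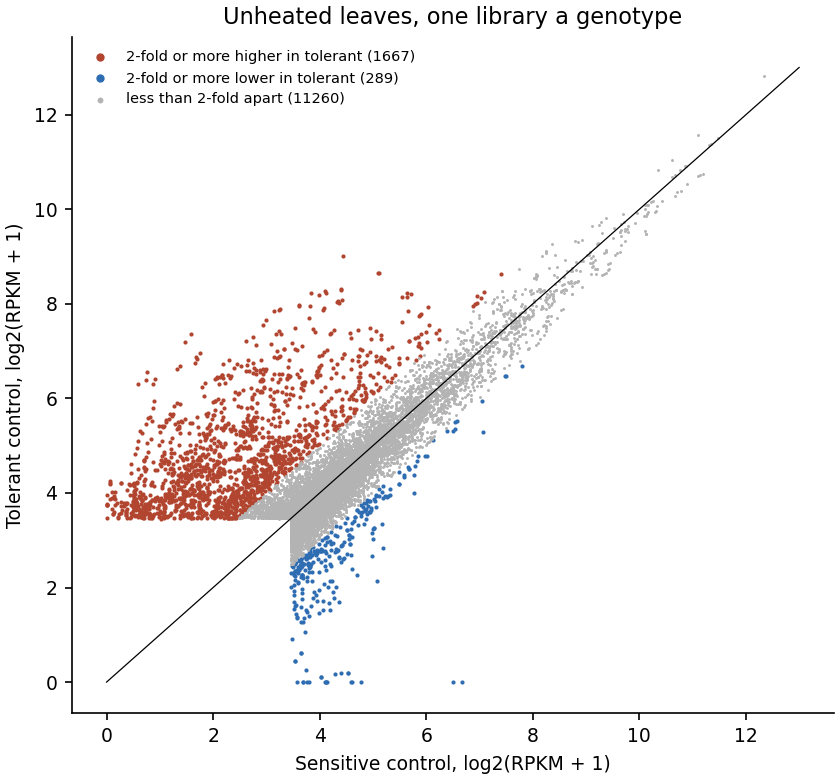
Level of each of the 13216 transcripts in the tolerant control (vertical axis) against the sensitive control (horizontal axis), both as log2(RPKM + 1), with the line of equal levels. The 1667 transcripts higher in the tolerant control spread far from the line, whereas 229 of the 289 lower ones are less than 4-fold apart, and some form a row at or near 0 in the tolerant control. The empty corner at lower left comes from the limit of 10 RPKM.

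Counted once per component, by the transcript with the highest mean over the controls, 923 of 8128 components (11.4%) were higher by 2-fold or more in unheated tolerant leaves and 184 (2.26%) lower. Transcripts in different components can also share a profile. When the transcripts past 2-fold were joined by component and by proportional values over the 6 libraries, the 1667 higher ones fell into 680 groups and the 289 lower ones into 168. The 437 transcripts past 8-fold upward fell into 185 groups and the 25 downward into 11. The counts of transcripts thus exceed the number of separate profiles by more than 1.5 times in both directions.

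The lean toward the tolerant genotype was seen in every class of abundance except the highest. Of 8282 transcripts with a mean under 20 RPKM over the controls, 13.4% were higher and 2.79% lower in the tolerant control. The shares were 11.3% and 1.39% of 3300 transcripts at 20 to 50 RPKM, 14.2% and 0.947% of 950 at 50 to 100 RPKM, and 8.77% and 0.506% of 593 at 100 to 500 RPKM. None of the 91 transcripts at 500 RPKM or more was 2-fold apart. In that class the log2 ratios ran from -0.71 to 0.55 with a median of -0.18, and the median levels were 767 RPKM in unheated tolerant and 830 RPKM in unheated sensitive leaves. The 100 most abundant transcripts of each control had 86 in common. Of the 114 in either list, 1 was 2-fold apart.

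**Figure D2:**
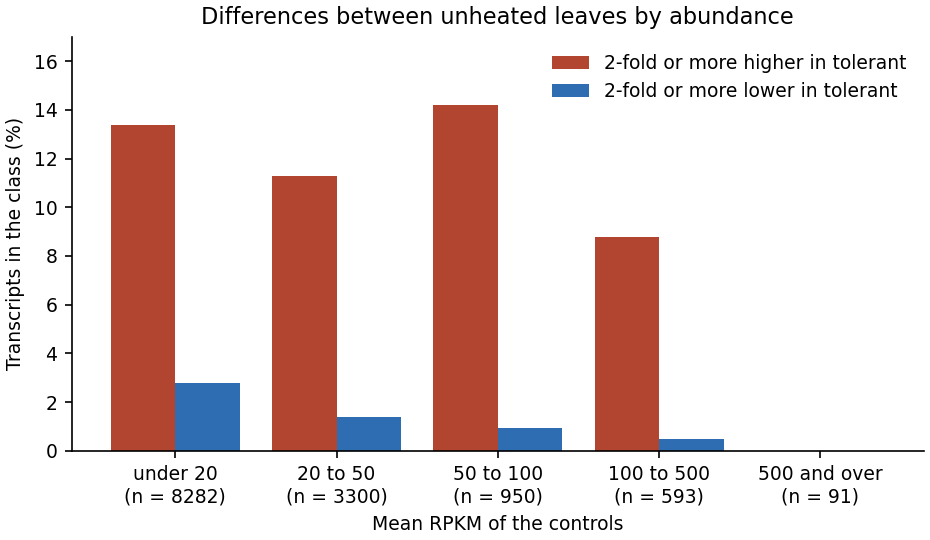
Percentage of transcripts at least 2-fold higher (left bars) or lower (right bars) in the tolerant than in the sensitive control, by mean RPKM over the controls, with the number of transcripts in each class. Higher shares lie between 8.77% and 14.2% up to 500 RPKM and lower shares between 0.506% and 2.79%, and no transcript at 500 RPKM or more passed 2-fold.

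Among 684 transcripts averaging at least 100 RPKM over the controls, 52 from 47 components were higher in the tolerant control and 3 lower. The 52 had medians of 247 RPKM in unheated tolerant and 45.5 RPKM in unheated sensitive leaves. The most abundant of them in the tolerant control measured 514.72 RPKM there and 20.73 RPKM in the sensitive control. After heat that transcript was lower in the tolerant genotype, at 84.25 and 187.16 RPKM after 4 and 8 h in tolerant leaves, against 355.87 and 418.16 RPKM in sensitive leaves. It was thus high in 5 of the 6 libraries and low in the sensitive control. Another stood at 398.53 RPKM in unheated tolerant and 167.92 RPKM in unheated sensitive leaves, and was at 29.03 and 0.58 RPKM in heated tolerant leaves against 27.85 and 12.27 RPKM in heated sensitive leaves. The 3 lower transcripts were only just past 2-fold, with log2 ratios of -1.10 to -1.02.

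The leading transcript in the tolerant direction, comp107307_c0_seq2, measured 93.83 RPKM in unheated tolerant and 0.7 RPKM in unheated sensitive leaves, a 134-fold difference in RPKM and a log2 ratio of (RPKM + 1) of 5.80. In heated tolerant leaves it was at 7.23 and 26.81 RPKM after 4 and 8 h, and in heated sensitive leaves at 28.92 and 35.46 RPKM. The sensitive control was therefore the only library below 1 RPKM, and the order of the genotypes turned at 4 h, with a log2 ratio of -1.86. The second, comp109227_c0_seq1, had another profile. It measured 163.7 RPKM in unheated tolerant and 2.02 RPKM in unheated sensitive leaves, 81.0-fold apart, then 4.67 RPKM and a listed 0 in heated tolerant leaves, against 1.66 and 0.3 RPKM in heated sensitive leaves. Here the tolerant control alone was high.

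The leading pair in the sensitive direction was listed at 0 in all 3 tolerant libraries, so no fold is given. comp76250_c0_seq2 measured 100.6, 44.45 and 69.23 RPKM in sensitive leaves without heat, after 4 h and after 8 h, and comp83556_c0_seq1 measured 89.98, 39.75 and 61.87 RPKM. Both were present in sensitive leaves with and without heat. Their values are nearly proportional across the sensitive libraries, so the pair may be read as 1 profile.

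**Figure D3:**
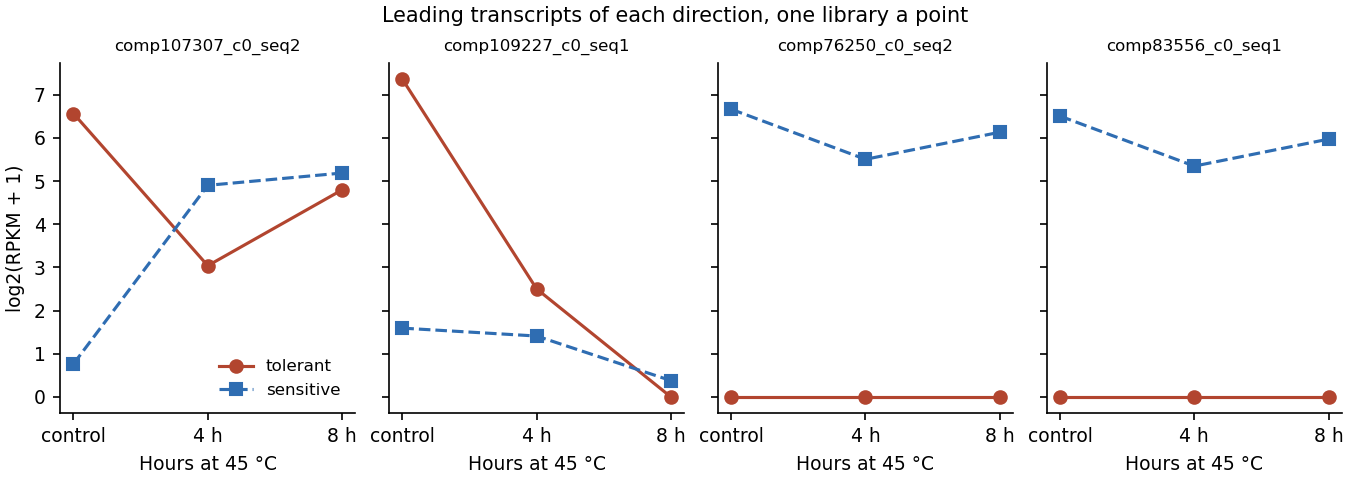
Levels, as log2(RPKM + 1), of the leading transcripts higher (left pair of panels) and lower (right pair) in the tolerant control, in the control and after 4 and 8 h at 45 °C, with 1 library per point. The first is low in the sensitive control alone, the second is high in the tolerant control alone, and the last pair is listed at 0 in all tolerant libraries.

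The 20 leading transcripts of each direction were taken 1 per component. Many of them form pairs of equal or nearly proportional values across components, so each 20 stand for fewer separate profiles. The 20 highest had 37.3 to 515 RPKM in the tolerant control, with a median of 99.6 RPKM, and 0.50 to 20.7 RPKM in the sensitive control, with a median of 1.55 RPKM. In the heated pairs 2 of them were higher by 2-fold or more in tolerant leaves at 4 h and 11 at least 2-fold lower, and at 8 h 0 were higher and 8 lower. Of all transcripts compared, 9.84% were lower at 4 h and 42.0% at 8 h, so that the 8 of 20 lies near the background. The 20 lowest had 0 to 3.38 RPKM in the tolerant control and 10.6 to 101 RPKM in the sensitive control. Of these, 16 were lower by 2-fold or more in tolerant leaves again at 4 h and 17 at 8 h, and 0 were higher at either time.

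A few transcripts were near-absent in one control. At 10 RPKM or more in the tolerant control and below 0.1 RPKM in the sensitive one were 15 transcripts of 15 components, which joined into 11 groups by proportional values. Their tolerant control levels ran from 10.01 to 18.01 RPKM, and 6 were listed at 0 in the sensitive control. After heat 10 of the 15 were at 1 RPKM or more in both heated sensitive libraries, and 4 were at 10 RPKM or more. The highest of these 4 measured 18.01, 20.97 and 16.37 RPKM in tolerant leaves without heat, after 4 h and after 8 h and 0.05, 57.14 and 34.48 RPKM in the sensitive ones. Of the 15, 10 were thus detected at that level in the sensitive genotype once it had been heated. Most of these 10 form pairs of nearly proportional values, so they stand for fewer profiles. In tolerant leaves 7 of the 15 stayed at 1 RPKM or more at all 3 times.

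In the other direction 16 transcripts of 9 components, joined into 5 groups, were at 10 RPKM or more in the sensitive control and below 0.1 RPKM in the tolerant one. Their sensitive control levels ran from 10.88 to 100.6 RPKM, and 14 were listed at 0 in the tolerant control. All 16 stayed below 1 RPKM in the tolerant libraries at all 3 times, and 7 were listed at 0 in each of them. All 16 were at 1 RPKM or more in each sensitive library, 10 of them at 10 RPKM or more. The heated libraries had no part in choosing these transcripts. At the wider limit of 1 RPKM all 16 were thus low again in both heated tolerant libraries. Of the 15 transcripts near-absent from unheated sensitive leaves, 5 were below 1 RPKM in all 3 sensitive libraries. Below 0.1 RPKM at all 3 times were 10 of the 16 in tolerant leaves and 0 of the 15 in sensitive leaves. For neither direction was the share of all transcripts past these limits counted. Depth relative to the tolerant control also differed, at 0.805 and 0.794 in heated tolerant leaves after 4 and 8 h. In heated sensitive leaves it was 1.07 and 0.869.

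The heated libraries allowed each difference of the controls to be looked up again, since the control, 4 h and 8 h pairs share no library. Over all 13216 transcripts, 360 (2.72%) were higher by 2-fold or more in tolerant leaves at 4 h and 1300 (9.84%) lower, and at 8 h 712 (5.39%) were higher and 5548 (42.0%) lower. The background of the 8 h pair was thus itself strongly tilted to lower values in tolerant leaves, with a median log2 ratio of -0.76. Of the 1667 transcripts higher in the tolerant control, 102 (6.12%) were higher again at 4 h and 360 (21.6%) were lower. At 8 h 180 (10.8%) were higher again and 706 (42.4%) lower. Their medians of the log2 ratio were -0.42 at 4 h and -0.77 at 8 h. The share lower at 8 h lies near the background, whereas the share lower at 4 h is 21.6% against 9.84%.

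Of the 289 transcripts lower in the tolerant control, 77 (26.6%) were lower again at 4 h and 10 (3.46%) higher. At 8 h 137 (47.4%) were lower again and 15 (5.19%) higher, again near the background of that pair. Over both directions 179 of 1956 differences recurred at 4 h and 317 at 8 h, while 370 and 721 were seen the opposite way. Most of the 1956 were upward, and 42.0% of all transcripts were lower at 8 h. The 721 therefore cannot be read apart from the tilt of that pair. For the 1667 upward ones, recurrence was above the background, at 6.12% against 2.72% at 4 h and 10.8% against 5.39% at 8 h. The balance of recurring and opposite differences also depended on the limit of 10 RPKM and the pseudocount. At 1 RPKM 948 recurred and 952 were opposite at 4 h. With no limit and a pseudocount of 0.1 RPKM 23796 recurred and 19987 were opposite at 8 h. The share of upward calls changed too, from 85.2% to 62.1% at 1 RPKM and 46.1% in the last setting. Shares of all transcripts in the heated pairs were not recomputed there, so these balances cannot be read apart from the tilt of the pairs. Across all 13216 transcripts the log2 ratio of the controls had r = -0.07 (rho = 0.01) with that at 4 h and r = 0.06 (rho = 0.04) with that at 8 h, as a description with no test.

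The largest differences behaved unlike each other by direction. Of the 437 transcripts higher by 8-fold or more in unheated tolerant leaves, 22 (5.03%) were at least 2-fold higher again at 4 h and 188 (43.0%) were lower, with a median log2 ratio of -0.91. At 8 h 34 (7.78%) were higher again and 238 (54.5%) lower, with a median of -1.07. Of all transcripts compared, 2.72% were higher and 9.84% lower at 4 h, and 5.39% were higher and 42.0% lower at 8 h. The share lower thus lay far above the background at 4 h and closer to it at 8 h. The 188 of 437 became 286 of 500 under upper-quartile scaling, and 299 of 657 with a pseudocount of 0.1 RPKM, which also took the 238 at 8 h to 388. With that pseudocount and no limit on level the lean at 4 h was gone, with 1220 higher again and 1216 lower of 5048. Upper-quartile scaling by itself moved the log2 level of tolerant leaves by -0.29 at 4 h and by 0.27 at 8 h. The shares of all transcripts were not recomputed under these settings, so 9.84% and 42.0% are no background for them. Of the 25 transcripts at least 8-fold lower, 22 were at least 2-fold lower again at 4 h and 23 at 8 h, with medians of -2.98 and -3.22, and all 25, which join into 11 groups, had a ratio below 0 at both times, against 59.8% of all transcripts at 4 h and 74.3% at 8 h. At 4 h the median log2 ratio was -0.17 for transcripts 2- to 4-fold higher in the tolerant control, -0.57 for those 4- to 8-fold higher and -0.91 for those 8-fold or more higher. At 8 h these classes had medians of -0.48, -0.92 and -1.07, the first of them above the -0.70 of the 4747 transcripts that were higher in the tolerant control by less than 2-fold. The 35 transcripts 4- to 8-fold lower had medians of -0.22 at 4 h and -0.96 at 8 h. Their median levels at these times were 1.13 and 0.5 RPKM in tolerant leaves and 1.8 and 2.15 RPKM in sensitive leaves. So close to the pseudocount of 1 RPKM, this scale understates their ratios.

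**Figure D4:**
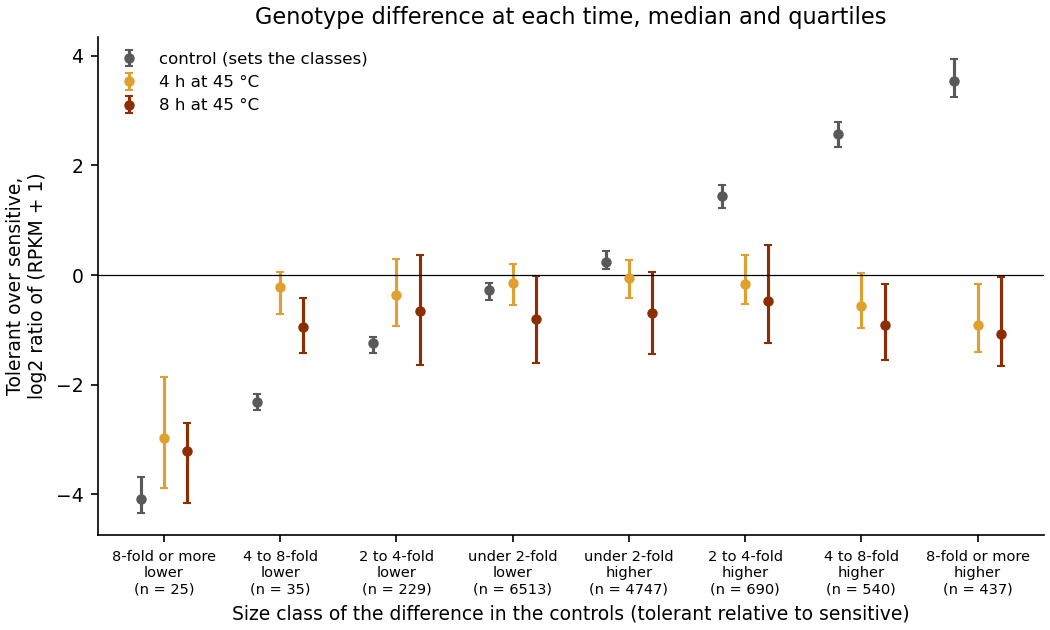
Log2 ratio of (RPKM + 1), tolerant over sensitive, in the controls and after 4 and 8 h of heat, for transcripts classed by the size of the difference in the controls. Points are medians and bars quartiles over transcripts. The heated medians of the 25 transcripts in the leftmost class are -2.98 and -3.22, and those of the 437 in the rightmost class are -0.91 and -1.07.

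Levels in the 6 libraries describe where each control lay, although the controls themselves chose the sets. The 1667 transcripts higher in the tolerant control stood at medians of 21.9, 12.8 and 12.3 RPKM in tolerant leaves without heat, after 4 h and after 8 h, and of 4.24, 17.4 and 22.1 RPKM in the sensitive ones. They held 8.12%, 5.64% and 9.67% of all RPKM in the tolerant libraries and 1.54%, 7.78% and 8.45% in the sensitive ones. The sensitive control had the lowest of the 6 values for 1138 of them (68.3%), while the tolerant control had the highest for 731 (43.9%). Over all 13216 transcripts these shares were 15.1% and 25.5%. Choosing transcripts by the controls favours both extremes, and the shares are given as a description. In 837 (50.2%) a heated sensitive library reached or passed the tolerant control, against 5315 of all 13216 (40.2%). The share was similar, at 50.9%, for transcripts lower by 2-fold or more in the tolerant control, so it is not particular to the 1667. For those at least 8-fold higher there it was 44.9%. Both heated sensitive libraries did so for 33.0% of the 1667, 25.9% of all and 24.9% of those past 8-fold upward. In 320 of the 1667 (19.2%) every other library was at no more than 50% of the tolerant control, the profile of comp109227_c0_seq1. This condition repeats much of the rule that chose the 1667, so the 2.63% of all transcripts is no independent background.

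The 437 transcripts past 8-fold had median levels of 34.8, 8.90 and 14.3 RPKM in the tolerant libraries and 1.60, 20.3 and 27.9 RPKM in the sensitive ones, in the order control, 4 h and 8 h. The sensitive control was the lowest library for 365 of them (83.5%) and the tolerant control the highest for 214 (49.0%). For the 289 transcripts lower in the tolerant control the medians were 5.32, 2.83 and 1.25 RPKM in the tolerant libraries and 16.3, 4.80 and 4.41 RPKM in the sensitive ones. The sensitive control was the highest library for 238 of these (82.4%), and the tolerant control the lowest for 53 (18.3%). Over all 13216 transcripts the shares were 34.6% and 6.92%, and the tolerant library at 8 h was the lowest in 58.6%. Choice by the controls favours the extremes in these sets too. Of the 25 transcripts past 8-fold downward, the sensitive control was the highest library for 18 (72.0%) and the tolerant control the lowest for 15 (60.0%). In 177 of the 289 (61.2%) every other library was at no more than 50% of the sensitive control. This condition repeats much of the rule that chose the 289, so the 1.53% of all transcripts is no independent background. The sampling hour of the controls is not stated, and its part in these differences was not tested.

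**Figure D5:**
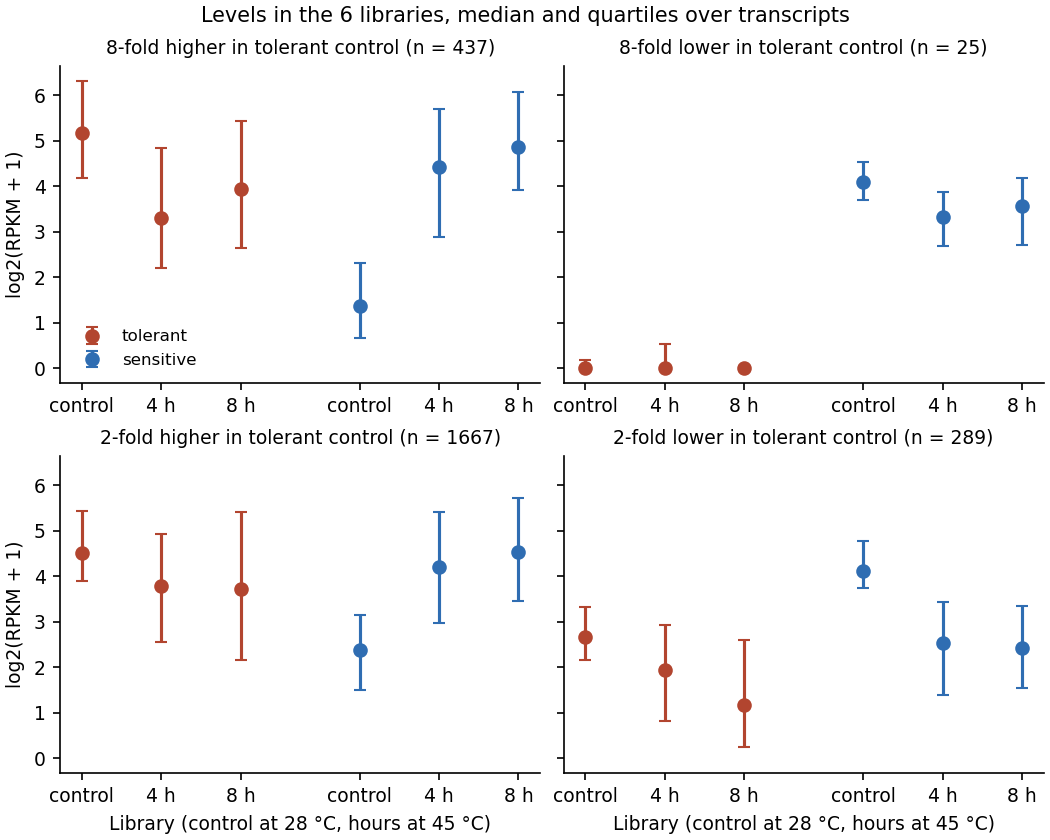
Level, as log2(RPKM + 1), in each of the 6 libraries for transcripts at least 8-fold (upper panels) or 2-fold (lower panels) higher or lower in the tolerant control. Points are medians and bars quartiles over transcripts. In the left panels the sensitive control lies below the other 5 libraries, and in the upper right panel the tolerant libraries lie at or near 0 at all 3 times.

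The step from 4 to 8 h uses neither of the control libraries by which the transcripts were chosen. In tolerant leaves 25.1% of the 1667 transcripts were at least 2-fold higher at 8 h than at 4 h, against 6.98% of all 13216. On the other side 22.3% were at least 2-fold lower, against 36.2% of all, and the median log2 step was 0.02, against -0.69 for all. The median of the set was thus level in tolerant leaves, between similar shares in either direction, while the median of all transcripts was lower at 8 h than at 4 h. In sensitive leaves 18.1% were higher and 5.40% lower, against 4.82% and 5.72% of all. For the 437 transcripts past 8-fold the share higher was 29.5% in each genotype, and the share lower was 8.70% in tolerant leaves and 5.03% in sensitive leaves. Of the 289 transcripts lower in the tolerant control, 6.57% were higher at 8 h than at 4 h in tolerant leaves and 27.3% lower, and in sensitive leaves 4.84% and 6.57%. Each step lies between single libraries and was not tested.

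Some transcripts differed the same way at all 3 times. Over all 13216 transcripts, whatever the controls showed, 124 (0.938%) were higher by 2-fold or more in tolerant leaves at both heated times and 951 (7.20%) lower. In the tolerant direction 64 transcripts of 35 components (26 groups) were higher each time, 3.84% of the 1667 against that 0.938%. Their medians were 20.1, 16.8 and 88.8 RPKM in tolerant leaves without heat, after 4 h and after 8 h and 2.72, 3.66 and 11.8 RPKM in the sensitive ones. In the sensitive direction 66 transcripts of 46 components (28 groups) were lower each time, 22.8% of the 289 against 7.20%, with medians of 4.29, 1.53 and 0.485 RPKM in tolerant leaves and 19.7, 10.2 and 8.34 RPKM in sensitive leaves. By contrast, 238 transcripts of 158 components were higher in the tolerant control and lower in the tolerant genotype at both heated times, 14.3% of the 1667 against the same 7.20%. The reverse held for 3 transcripts of 3 components, 1.04% of the 289, near the background of 0.938%.

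Transcripts of 1 component seldom differed in opposite directions. Of 2471 components with at least 2 of the transcripts compared, 364 held one higher by 2-fold or more in unheated tolerant leaves, and in 266 of those (73.1%) all of them were higher. Of the 80 with a lower one, all were lower in 34 (42.5%). Only 4 of the 2471 components held transcripts 2-fold apart in both directions, and the median range of log2 ratios within a component was 0.11. Transcripts assembled together share reads, so like ratios within a component are no independent result. Both directions were possible only among the 80 components with a lower transcript, and no background for the 4 was computed. Among the 5657 components with 1 transcript compared, 623 (11.01%) were higher and 138 (2.44%) lower.

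The leading transcript of a component often differed between the controls, but seldom by much. Of 9946 components with at least 2 transcripts and a summed level of 10 RPKM or more in both controls, 2214 (22.3%) had a different most abundant transcript in each control. The summed level of 2114 of these (95.5%) was less than 2-fold apart. The leading transcript of the tolerant control held a median of 2.10 percentage points more of its component there than in the sensitive control, and that of the sensitive control 1.75 points more in its own. Where the leading transcript of either control also led under heat, the split was almost even at 4 h. A small lean to the own genotype was seen at 8 h. In tolerant leaves at 4 h, 746 components were led by the tolerant control's transcript and 748 by the sensitive control's, and in sensitive leaves at 4 h 799 were led by the sensitive control's own and 814 by the tolerant control's. At 8 h the numbers were 684 and 629 in tolerant leaves and 858 and 745 in sensitive leaves. A transcript that led in neither control led 720 and 901 components in tolerant leaves at 4 and 8 h, and 601 and 611 in sensitive leaves. Of the 7732 components with the same leading transcript in both controls, 60.8% to 76.5% kept it in a heated library. In all 4 heated libraries together, 49 components (2.21%) kept the transcript of their own genotype and 32 carried that of the other.

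In 22 components the leading transcript of each control held at least 20 percentage points more of its component there than in the other control, and 3 of the 22 kept this order in all 4 heated libraries. The widest exchange was in a component with a sum of 17.99 RPKM in unheated tolerant and 22.58 RPKM in unheated sensitive leaves. One of its transcripts measured 17.91 RPKM in unheated tolerant and 7.19 RPKM in unheated sensitive leaves. The other measured 0.08 RPKM in unheated tolerant and 15.39 RPKM in unheated sensitive leaves, and is among the 16 near-absent from tolerant leaves. That second transcript remained at 0.78 RPKM and a listed 0 in tolerant leaves after 4 and 8 h, against 4.36 and 7.78 RPKM in sensitive leaves. The first transcript measured 8.18 and 9.63 RPKM in those heated sensitive leaves. It thus led the component there, and the exchange was not kept under heat. The component as a whole thus differed little while one of its transcripts was close to absent in the tolerant genotype.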

How the data were processed

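The files hold RPKM with 2 decimals, as the authors deposited them and per the file headers, with 1 column per library. Which programs assembled, aligned and counted the reads, and whether strand was used, is not stated by the labels or headers. Libraries were grouped by their titles and joined on transcript identifier. The log2 ratio of (RPKM + 1), tolerant over sensitive, was taken within the control, 4 h and 8 h pairs for transcripts at 10 RPKM or more in either control. This scale understates ratios of low transcripts. Plain folds are ratios of RPKM. Components are identifiers without their last number. With 1 library per group only sizes are given, and no p-value.

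Total reads are unknown. Relative depth is the RPKM ratio that recurs among values of 0.25 to 1.5 RPKM, where small whole numbers of reads coincide. No counting interval can be given.

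Transcripts were joined into groups where they shared a component or where their log2 RPKM ratio varied by no more than 0.1 over libraries with both at 1 RPKM or more, of which at least 3 were required. In the remaining libraries both had to be below 2 RPKM.

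The 2 leading transcripts of each direction, from different components, are named, and 20 of each direction are summarised. Other single transcripts were chosen after their values were seen. The transcripts, classes and limits were chosen with earlier results of these data known. The code was tested on simulated data. Python 3.11.15, pandas 2.3.3, numpy 2.4.6 and matplotlib 3.10.9 were used.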

Additional observations from a re-analysis of the deposited data

Results flagged for a closer look

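comp107307_c0_seq2 was the transcript with the largest lead of the tolerant genotype without heat, and at 4 h its log2 ratio of (RPKM + 1), tolerant over sensitive, had the opposite sign, at -1.86, and at 8 h it was -0.39. A turn past 2-fold at both heated times, which that transcript did not make, was seen for 238 transcripts, each higher by 2-fold or more in unheated tolerant leaves and lower by 2-fold or more in tolerant leaves at 4 h and 8 h. They are 14.3% of the 1667 higher in the control, while 7.20% of all 13216 transcripts were lower at both heated times. Each time had 1 library per genotype, so the difference between times was not tested.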

How the results depend on the processing

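Of 168 counts recomputed under the alternatives, 91 stayed within 1.5 times the reported value. All depend on single libraries, and total reads are unknown. Shares over all transcripts in the heated pairs were not recomputed under the alternatives, so the counts of recurring and opposite differences lack a matching background. The cause of each change was not tested, apart from the larger or smaller number of transcripts that a filter admits. No paired analysis was possible because each group held 1 library and nothing was tested.

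At 1 RPKM, 6862 transcripts were higher by 2-fold in unheated tolerant leaves and 4191 lower, and 3818 and 2961 components, and without any filter 6862 and 4191 transcripts and 3807 and 2938 components. Both settings gave 53 components with both directions, with 948 differences recurring and 952 opposite at 4 h, and 1651 and 1925 at 8 h. The leading transcript of a component differed in 8575 at 1 RPKM and 13097 unfiltered. At 5 RPKM the counts were 2806 and 688 transcripts, 1470 and 435 components, 12 with both directions and 4077 with different leading transcripts, while 341 differences recurred at 4 h, 604 at 8 h and 1129 were opposite at 8 h.

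At 20 RPKM the counts were 915 and 109 transcripts, 562 and 64 components, 0 with both directions and 931 with different leading transcripts. Then 91 differences recurred and 242 were opposite at 4 h, 158 and 393 at 8 h, 14 (4 h) and 22 (8 h) of the transcripts 8-fold higher were higher again, and all 8 that were 8-fold lower were lower again at both times. Transcripts near-absent from the tolerant control numbered 5 and from the sensitive control 0. With a listed 0 in place of 0.1 RPKM, 6 were near-absent from the sensitive control.

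Without a filter and with a pseudocount of 0.1 RPKM the balance turned, to 37527 higher and 43836 lower transcripts and 23800 and 28801 components, with 5048 and 4078 past 8-fold, 1958 components with both directions and 13097 with different leading transcripts. Then 17368 differences recurred and 19901 were opposite at 4 h, and 23796 and 19987 at 8 h. Of those 8-fold higher, 1220 and 986 were higher again at 4 and 8 h and 1216 and 1871 lower, and of those 8-fold lower, 1148 and 1775 were lower again. A pseudocount of 0.1 alone gave 657 transcripts 8-fold higher, 41 and 54 of them higher again at 4 and 8 h and 299 and 388 lower.

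Upper-quartile scaling moved the opposite differences at 4 h to 606 and the transcripts 8-fold higher and then lower at 4 h to 286. Summed levels gave 328 lower components. Joining transcripts, chosen after the data were seen, gave 680 and 168 groups past 2-fold and 185 and 11 past 8-fold.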
